A study of Schizosaccharomyces pombe with 4 samples.

Results

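Windows on protein-coding genes outside the highly expressed and repeated classes were taken from the comparison of small RNA reads between a wild-type fission yeast strain (WT) and a strain labelled ABP1d. A window is a short stretch of genome for which the authors' deposited table lists a level in each strain. A window was kept where it overlapped an annotated protein-coding gene of chromosomes I to III by at least 1 base and held no run of 15 or more A or T. Windows on Tf2 retrotransposons, LTRs, rRNA, tRNA, snRNA and snoRNA genes, centromeres, the mating-type locus, the outer 100 kb of chromosomes I and II, genes named rpl or rps (ribosomal proteins; ubi3, ubi5 and rpp201, which also encode such proteins, were kept) and the most used glycolytic and translation elongation factor genes (tdh1, eno101, pgk1, fba1, pyk1, adh1, tef101, tef102 and tef103) were left out. Of 4012 windows, 682 were kept, and they lay on 631 of the 5113 annotated protein-coding genes. The rule used no measured level, but every listed window had passed the authors' own test, with deposited p-values of at most 0.0494, so windows with like levels in both strains are missing.

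The WT group was 2 libraries of wild-type Schizosaccharomyces pombe, and the ABP1d group was 2 libraries of the strain whose genotype label is ABP1d. Cells of both strains were growing exponentially in rich medium, with no treatment. Abp1, which the annotation names Cbp1, belongs with Cbh1 and Cbh2 to the CENP-B family, DNA-binding proteins that descend from transposases. The deposited levels are pooled over the libraries of a strain, so there is no spread between libraries and no test between strains is possible, and intervals given here cover counting error only. In bulk libraries of a culture, more cells with a given RNA, more of it per cell and less of all other RNA cannot be told apart. No window of the comparison overlapped cbp1, cbh1 or cbh2, so the targeted gene gave no check of the labels.

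Fission yeast makes small interfering RNAs mainly from the repeats of centromeres, telomeres and the mating-type locus, through Dicer, Argonaute and an RNA-dependent RNA polymerase, and these RNAs guide heterochromatin to the repeats. Small RNA libraries of total RNA also hold fragments of other transcripts, among them mRNAs, introns and rRNA. Genes of this yeast are compact, many hold short introns, and splicing cuts the RNA at a conserved sequence at the first bases of the intron.

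The windows were short, with a median length of 18 bases and a range of 1 to 60 bases. Reads are given as whole numbers recovered from the deposited RPKM values. The strain totals were 23817270 reads for ABP1d and 14466014 for WT. A window held a median of 19 reads over both strains, from 10 to 833. The 3 groups of sequences below show what the results turn on: windows that start on an intron's first base, windows in coding sequence of the genes with the most reads or the most unequal reads, and windows whose letters recur in the rRNA repeats. All are on ASM294v3 and written 5′ to 3′ on the strand of the gene, because the deposited windows carry no strand.

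In the first group, capitals mark the first 6 bases of the intron, and the windows are, of those on 1 gene, 4 of the ones with the most ABP1d reads at introns outside the UTRs; they were picked after their values were seen.
trm401, chr1:4731894-4731919, forward strand: GTAAGAacatgatatatacgcagaac
vma11, chr1:2057696-2057721, forward strand: GTATGGacgattgaattatgattaat
paf1, chr1:1708825-1708850, forward strand: GTAAGAactagacttgaaaaacagac
utp13, chr3:869727-869749, forward strand: GTATGTaaaagattgaaacacat

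In the second group, capitals mark the word ATACGA or any of 4 words of 5 bases that come up again below; a word on the other strand is in capitals as its reverse complement. Shown is, for each gene with the most or the most unequal reads that has a window wholly in coding sequence, the one with the most reads.
spb1, chr1:924360-924385, forward strand: tgaagatgatgattggaattctgatt
gcn3, chr3:1465656-1465673, reverse strand: tcaCTACAcgatgtcggg
gem1, chr3:165482-165508, forward strand: ctttcggtgcTCTACtattatctgttg
pma1, chr1:3872607-3872665, reverse strand: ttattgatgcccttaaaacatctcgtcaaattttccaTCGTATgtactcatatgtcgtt
vtc4, chr3:1318996-1319022, reverse strand: tgacgaagaatcTCGTATtggctcatc
fas1, chr1:3904861-3904885, reverse strand: cgttgatactagattgtcTCGTATg
SPAC4G9.22, chr1:2292102-2292121, forward strand: cgttggagaaaagagcaagg
hmt2, chr2:2589786-2589793, reverse strand: tgtatcct

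In the third group all letters are capitals, because the whole window is repeated in the rRNA repeats of chromosome III.
swi6, chr1:1703781-1703798, reverse strand: AGAAGAAGAAGGAGGAGA
tif52, chr1:1130453-1130471, forward strand: AAAGAAAGAAGAGATGAAG
cam1, chr1:1445086-1445103, forward strand: ATTGCAGAATTCCGTGAA

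Most of the windows had a higher level in ABP1d. Levels are given as RPM, the reads of a window scaled to the reads of its strain. Of the 682 windows, 638 (93.5%) were higher in ABP1d, where 82.9% of all 4012 windows were, and 44 were higher in WT, where 17.1% of all windows were. At least 2-fold higher in ABP1d were 636 windows, against 79.9% of all windows, and at least 2-fold higher in WT were 41, against 11.3%. No listed window had fewer than 10 reads over both strains, and ABP1d had the larger total. These windows held a median of 19 reads, and those outside them 46. Among these windows the share higher in ABP1d was 94.9% at 10 to 19 reads and 85.7% at 100 or more. The part of read number in the difference from all windows was not tested. The windows together had 19700 reads in ABP1d, or 827 RPM, and 2746 in WT, or 190 RPM, a ratio of 4.36 (95% binomial interval 4.19 to 4.54).

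WT had few reads in these windows, which sets what a ratio can show. WT was at 0 in 236 windows (42.7% of all windows were at 0 in WT), and ABP1d was at 0 in 3. With a count of 0 to 2 raised to a floor of 3 reads per strain, the log2 ratio of ABP1d over WT had a median of 1.60 and ranged from -3.89 to 4.82, while the median over all windows was 1.78 and that over the windows outside this class 1.84. The median is thus tied to the floor, since 236 windows had 0 reads in WT and 261 had 1 or 2.

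Among the 185 windows with at least 3 reads in WT, 141 were higher in ABP1d and 44 in WT, and their median was 1.87; this subset was taken by the WT count itself. No window had a log2 ratio between -0.55 and 0.93, as windows with like levels had not passed the authors' own test.

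**Figure D1:**
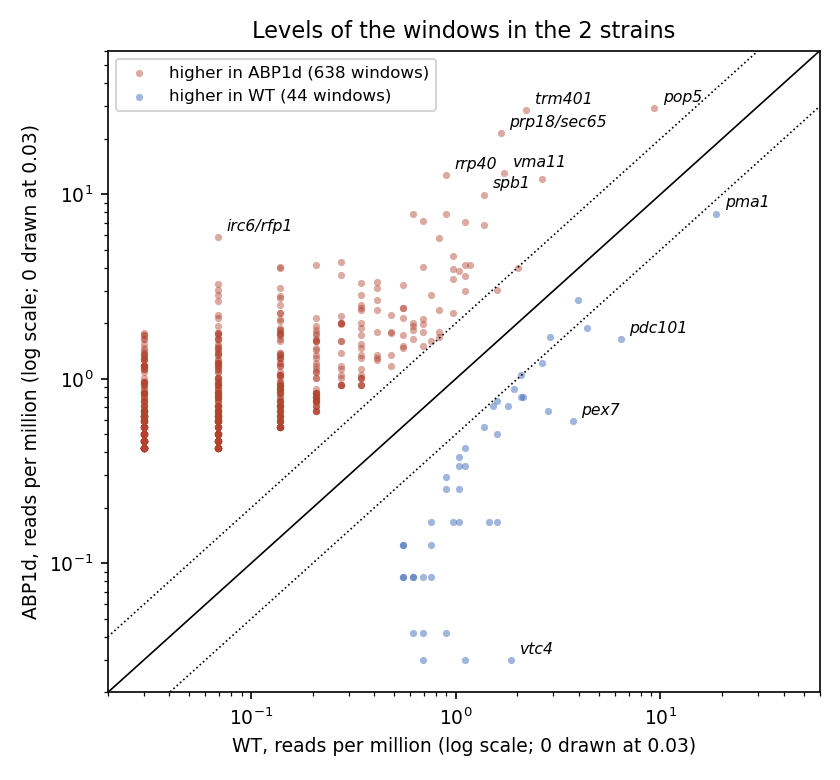
RPM of each of the 682 windows in WT (x axis) and ABP1d (y axis), both on log scales with a level of 0 drawn at 0.03; the solid line marks equal levels and the dotted lines 2-fold. The 638 windows higher in ABP1d and the 44 higher in WT leave the band around equal levels nearly empty, and 236 windows sit at a WT level of 0. Windows with like levels had not passed the authors' own test and are missing.

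The size of the surplus depended on the scaling. The rRNA repeats took 47.8% of all reads in ABP1d and 67.0% in WT. With totals taken without these repeats, the median log2 ratio was 0.94 and 335 windows were at least 2-fold higher in ABP1d. With the median of the 5S rRNA windows set to 0 the median was 0.35, with that of the snRNA windows set to 0 it was 0.04, and with that of all windows set to 0 it was -0.18. On that last scaling, whose own shift was taken with the floor, 86 windows were lower in ABP1d by their ratio without the floor and the rest higher. All directions below are relative to the totals unless another scaling is named.

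Read by gene, most genes held a single window. Of the 631 genes, 545 held 1 window, 70 held 2 and 16 held at least 3, and 54 windows lay on 2 overlapping genes. Summed over its windows, 595 genes (94.3%) were higher in ABP1d and 36 in WT; the interval of the ratio lay wholly above 1 for 546 genes and wholly below 1 for 34. At least 2-fold higher in ABP1d were 93.8% of the genes, and at least 2-fold higher in WT were 5.07%. Every window had passed the authors' own test, and most genes held a single window. How many intervals left out 1, and how many genes passed 2-fold, was therefore largely set by that test. The 10 genes with the highest mean level supplied 18.1% of the ABP1d reads.

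Of the genes with the most reads, all but the proton pump gene pma1 were higher in ABP1d. pop5, which encodes a subunit of RNase P and RNase MRP, had 794 reads in ABP1d and 145 in WT, in 2 windows of an intron, or 33.3 and 10.02 RPM, a ratio of 3.33 (2.78 to 4.00). trm401, a tRNA cytosine methyltransferase gene, had 680 reads in ABP1d and 32 in WT, or 28.6 and 2.21 RPM, a ratio of 12.9 (9.06 to 19.02). The window shared by prp18, which encodes a splicing factor of the U5 snRNP, and sec65, which encodes a subunit of the signal recognition particle, had 512 and 24 reads, a ratio of 13.0 (8.61 to 20.4). All 3 were higher in ABP1d, and pop5 was the closest to even: with the median of all windows set to 0 its log2 ratio turned from 1.73 to -0.05.

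vma11, which encodes a membrane subunit of the vacuolar proton pump, had 309 reads in ABP1d and 25 in WT, which gave the ratio 7.51 (4.99 to 11.8). rrp40, which encodes a subunit of the RNA exosome, had 319 and 13 reads, a ratio of 14.9 (8.59 to 28.3), in 2 windows of its 3′ UTR. atd1, an aldehyde dehydrogenase gene, had 287 and 38 reads in a window that began at the gene's first base, a ratio of 4.59 (3.26 to 6.62). spb1, an rRNA methyltransferase gene, had 237 and 20 reads in the coding window printed above, a ratio of 7.197 (4.56 to 12.0). The uncharacterized gene SPAC4G9.22 had 235 and 26 reads in 3 windows, a ratio of 5.49 (3.65 to 8.58).

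The 8 genes most unequal in favour of ABP1d, by the lower bound of the ratio, include trm401, prp18, sec65 and rrp40 above, and the other 4 had 0 or 1 read in WT. The window shared by irc6, a recombination gene, and rfp1, which encodes a subunit of a SUMO-targeted ubiquitin ligase, had 140 reads in ABP1d and 1 in WT, which is a ratio of 85.0 (15.01 to 3382); its sequence also stands in the rRNA repeats, whose part in these reads was not tested. gcn3, which encodes the alpha subunit of the translation factor eIF2B, had 65 reads and 0 in 3 windows and was at least 13.2-fold higher against the floor, while the exact interval of its ratio began at 10.4. gem1, which encodes a GTPase of the contact sites between endoplasmic reticulum and mitochondria, had 79 reads and 1 in 3 windows, of which 1 is shared with SPCC320.03, a ratio of 48.0 (8.37 to 1919). The breadth of these intervals comes from the WT count of 0 or 1.

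The genes most unequal in favour of WT had between 0 and 194 reads in ABP1d and between 10 and 302 in WT. pma1, the plasma membrane proton pump, had 194 reads in ABP1d and 302 in WT, or 8.15 and 20.9 RPM, and all 3 of its windows, in the 5′ UTR, the coding sequence and the 3′ UTR, were higher in WT; the fold was 2.56 (2.13 to 3.09). vtc4, which encodes a subunit of the vacuolar polyphosphate synthesis complex, had 0 reads in ABP1d and 27 in WT and was at least 14.8-fold higher in WT against the floor, while the exact interval began at 11.2. pex7, the import receptor for a class of peroxisomal proteins, had 14 and 54 reads in an intron window, 6.35-fold higher in WT (3.48 to 12.4). pdc101, a putative pyruvate decarboxylase gene, had 39 and 93 reads, 3.93-fold higher in WT (2.67 to 5.86).

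fas1, which encodes the beta subunit of fatty acid synthase, had 11 reads in ABP1d and 34 in WT, a WT excess of 5.09-fold (2.52 to 11.1), while fas2, which encodes the alpha subunit, had 31 and 2 and was higher in ABP1d. sir1, which encodes the beta subunit of sulfite reductase, had 4 and 24 reads, 9.88-fold higher in WT (3.39 to 39.2), in 2 short windows of 1 and 9 bases. hmt2, a sulfide-quinone oxidoreductase gene, had 1 and 10 reads in an 8-base window, 16.5-fold higher in WT (2.34 to 715). The Schizosaccharomyces-specific gene SPAC27E2.11C had 35 and 71 reads, 3.34-fold higher in WT (2.20 to 5.16).

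**Figure D2:**
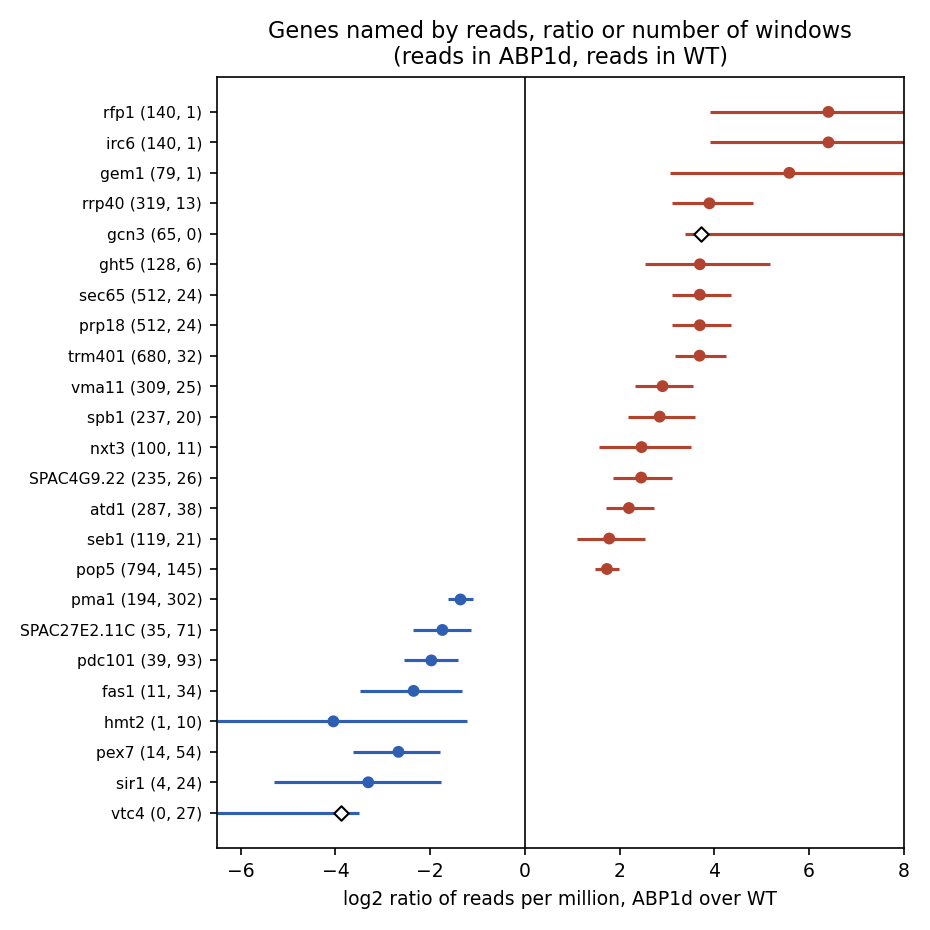
Ratios of RPM, ABP1d over WT, on a log2 axis for the genes with the most reads, the most unequal reads or the most windows, with reads in ABP1d and WT in brackets. Points are ratios, lines exact 95% binomial intervals cut at the axis limits, and open diamonds bounds against a floor of 3 reads; 16 genes lie above 0 and 8 below.

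In 5 genes, windows pointed in opposite directions: erg11, tif52, cut6, tpi1 and srk1. In tpi1, which encodes the glycolytic enzyme triosephosphate isomerase, the window on the gene's first 36 bases had 187 reads in ABP1d and 13 in WT, and a coding window of 41 bases had 17 and 26. In cut6, which encodes acetyl-CoA carboxylase, the 5′ UTR window had 12 reads in ABP1d and 0 in WT, and 2 coding windows had 4 and 11 and 0 and 16. In both genes the window nearest the gene's start was the one higher in ABP1d. The order of the windows in erg11, tif52 and srk1 is not given here, so this shows no pattern over the 5 genes.

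Several windows on a gene mostly pointed the same way, where 93.5% of all 682 windows were higher in ABP1d in any case. ght5, which encodes a high-affinity glucose transporter, held 5 windows, all higher in ABP1d, with 128 reads against 6 in all (ratio 13.0, 5.79 to 36.0); its window of 21 bases at position 40 after the gene's first base is repeated in ght8, and both are listed with 20 and 3 reads. nxt3, which encodes a cofactor of a ubiquitin protease, held 4 windows with 100 reads against 11 (ratio 5.52, 2.96 to 11.4). seb1, which encodes a protein that selects poly(A) sites, held 3 windows with 119 reads against 21 (ratio 3.44, 2.15 to 5.77), of which 2 lay in an intron.

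The windows gathered at the start of genes. Of 609 windows whose midpoint lay inside a gene and on no other, 152 (24.96%) lay in the first 50 bases of the gene, which hold 2.47% of the bases of all protein-coding genes, a 10.1-fold share. The last 50 bases held 20 windows (3.28%). By part of the gene, 279 windows (45.8%) lay in coding sequence, which makes up 68.8% of gene bases, 146 (23.97%) in the 5′ UTR (7.45%), 131 (21.5%) in the 3′ UTR (19.6%) and 53 (8.70%) in introns (4.19%). The share higher in ABP1d was alike in all parts of the gene: 92.1% of coding windows, 93.2% of 5′ UTR windows, 94.7% of 3′ UTR windows and 94.3% of intron windows were higher in ABP1d; the median log2 ratios were 1.60, 1.70, 1.70 and 1.63.

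**Figure D3:**
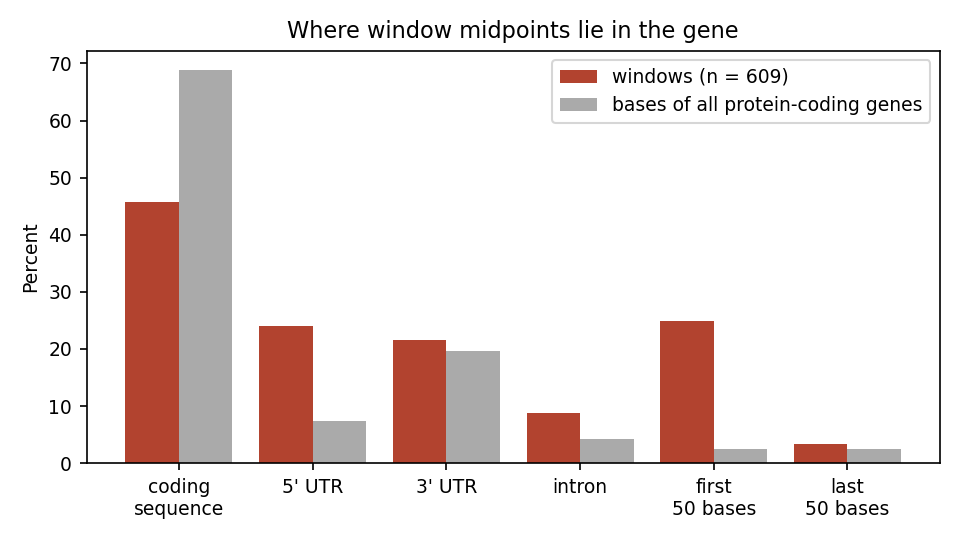
Share of the 609 windows (red) and of the bases of all protein-coding genes (grey) in each part of the gene, in percent, by the midpoint of the window; the 2 bars for the first and last 50 bases overlap with the other classes. The first 50 bases hold 24.96% of the windows and 2.47% of the bases.

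Many of these windows met the annotated start to the base. The 5′ edge of 25 windows lay on the first base of the gene, against 4 on the next base and 0 on the base before it. The match depends on how the coordinates are read: over all windows of the comparison, 20 on forward and 18 on reverse genes began on the first base as read here, and 1 and 0 if read as standard BED; for introns these were 13 and 10, and 0 and 1. Of these 25 windows, 24 were higher in ABP1d, and their median log2 ratio was 1.78. After atd1 and tpi1, the highest were ypt7, which encodes a GTPase of vacuole fusion (96 reads in ABP1d and 2 in WT), and prp3, which encodes a splicing factor of the U4/U6 snRNP (87 and 4); SPAC27E2.11C was the exception, with 19 and 30 reads. At gene ends, 1 window ended on the last base.

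The same held for introns. Of the 53 windows with their midpoint in an intron, 18 had their 5′ edge on the intron's first base, and no window ended on the last base. All 18 were higher in ABP1d, and their median log2 ratio was 1.70; they held 1526 reads in ABP1d against 119 in WT, which gave the ratio 7.79. The other 35 intron windows had 1587 and 359 reads, and 32 were higher in ABP1d. Of the sequences printed above, trm401 had 680 reads in ABP1d and 32 in WT, vma11 309 and 25, paf1, which encodes a subunit of the Paf1 transcription complex, 86 and 16, and utp13, which encodes a protein of the U3 snoRNP, 48 and 4. The window of prp18 and sec65 also began on the first base of an intron, that of sec65.

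**Figure D4:**
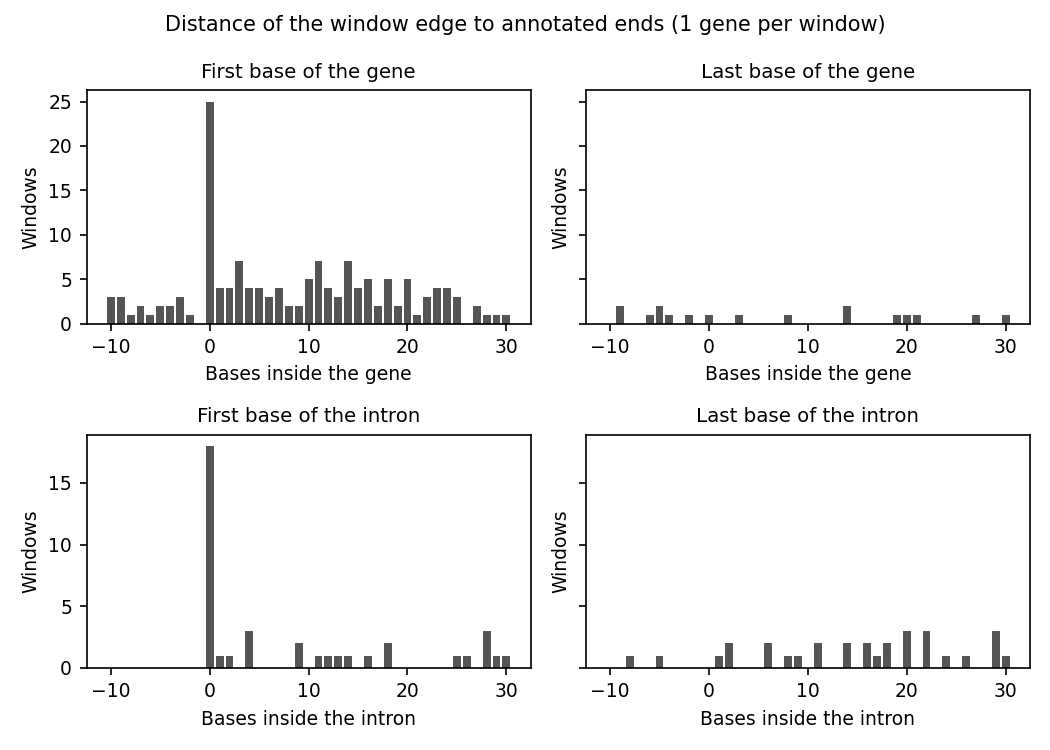
Number of windows (y axis) by the distance of the window's edge from the first or last base of its gene (top) or intron (bottom), in bases, positive inside; windows on 1 gene only. The bars at 0 stand for 25 windows at gene starts and 18 at intron starts, against 1 at gene ends and 0 at intron ends.

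Some windows carried a sequence that also stood elsewhere in the genome. Of 477 windows of at least 16 bases, 31 occurred more than once in the genome. All 31 were higher in ABP1d, as were 93.9% of the 477. Some of the 31 are the same sequence listed on 2 genes. In 8 windows the whole sequence also stood in the rRNA repeats of chromosome III, among them those of swi6, irc6 and rfp1, tif52 and cam1, which encodes calmodulin. The 8 windows together had 351 reads in ABP1d and 20 in WT, which gave the ratio 10.7. The window of irc6 and rfp1 alone held 140 and 1 of these. Matches were sought on both strands and also between the rRNA genes, so a match need not be to an RNA. Among the 8, the windows of rio2 and SPCC191.01 have the same sequence, a run of GAA repeats, and that of aim21 is its reverse complement. Those of swi6 and tif52 printed above are almost wholly A and G. Of the 146 windows of exactly 18 bases, 9 (6.16%) matched the repeats with at most 1 mismatch, and of 53682 stretches of 18 bases taken every 200 bases along protein-coding genes 0.0484% did. Those stretches were not matched to the windows for such simple sequence. Among longer windows, those of rga3 (17 reads in ABP1d and 22 in WT) and srk1 (25 and 30), both higher in WT, held a stretch of 18 bases of the repeats. The part of rRNA reads in these values was not tested.

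Other repeated windows lay in pairs of near-identical genes, whose reads cannot be assigned: the proteasome genes rpn501 and rpn502 have the same 3 windows, and ubi3 with ubi5 and the histone H3 genes hht1 with hht2 share theirs. The 446 windows of at least 16 bases that occurred once had 417 higher in ABP1d and 29 in WT, at a median log2 ratio of 1.94. Annotated noncoding RNAs overlapped 274 windows, and these had the same median, 1.60, as the 408 that no such RNA overlapped, while the summed ratio was 4.96 (4.66 to 5.29) on them and 3.96 (3.76 to 4.18) off them.

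Short words were unevenly spread. Of the 512 words of 5 bases, read on both strands, GTAGA had the highest share of positions relative to gene sequence (4.63-fold) among words found at 20 or more places: 70 windows (10.3%) held it, as did 2.23% of gene stretches of the same lengths and 9.90% of all windows of the comparison on chromosomes I to III. AGAAC was in 64 windows (9.38%, against 2.76% of gene stretches and 10.5% of all windows), CTACA in 46 (6.74%, against 2.08% and 7.81%) and AGGAC in 40 (5.87%, against 1.54% and 4.95%). At least 1 of these 4 words was in 24.9% of the windows and in 23.7% of all windows on these chromosomes. Ranks 4 to 7 by share of positions relative to gene sequence were passed over: in the order given, these 4 words ranked 1, 3, 8 and 2. They were in 166 of the 638 windows higher in ABP1d (26.02%) and in 4 of the 44 higher in WT (9.09%), while CGTCC, in 3.45% and 6.82%, and CGTTC, in 6.43% and 6.82%, which also stood out from gene sequence, had no higher share in ABP1d. The word ATACGA was in 6 of 638 windows higher in ABP1d (0.940%) and in 7 of 44 higher in WT (15.9%), among them those of pma1, vtc4 and fas1 printed above, in 0.649% of gene stretches of the same lengths and in 3.76% of all windows. The words were chosen after the values were seen. Of the words of 5 bases passed over, those at ranks 4 and 5 had no higher share in ABP1d. Those at ranks 6 (4.55% against 0%) and 7 (4.70% against 2.27%) had a higher one. The contrast of 26.02% and 9.09% thus holds for the 4 words as picked. Adapters were ligated to the RNA in these libraries, their sequences were not used here, and their part in these words was not tested.

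The share higher in ABP1d varied with length in no steady order. It was 86.8% at 1 to 5 bases, 85.7% at 6 to 10, 99.04% at 11 to 15, 97.6% at 16 to 20, 98.1% at 21 to 25, 72.2% at 26 to 30 and 83.9% at 31 to 60 bases. Length was tied to reads, since the 205 windows under 16 bases held at most 18 reads over both strains. Windows with 10 to 19 reads were 1 to 18 bases long. These shares thus do not set length apart from read number. The median window held 41.0% G and C, against 37.2% for all protein-coding gene sequence; windows higher in ABP1d had 41.2% and those higher in WT 37.3%. Just inside the limit on A or T runs, the 7 windows with a run of 13 or 14 bases were all higher in ABP1d, and just outside it, with a run of 16, 4 of 5 were higher in WT; the 5 windows with a run of 10 were all higher in WT. Within 50 to 100 kb of an end of chromosomes I and II, 4 of 6 windows left out were higher in ABP1d, and 3 of 4 at 100 to 150 kb.

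Retrotransposon remnants were mostly far away. The median distance of a window to the nearest LTR or Tf2 element was 23204.5 bases. Windows on these elements had been left out by the rule, and the distance for protein-coding genes at large was not taken. Within 5 kb of one, 105 of 109 windows were higher in ABP1d, and their median log2 ratio was 1.60, and beyond it 533 of 573 were, with a median of 1.64.

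Genes were also grouped by function, in 14 lists that hold only part of the genes of each function. Genes with a window that no list holds include gcn3, tif302, tif308, tif52, rpn501, rpn502, spb1 and utp13. The ribosomal protein gene rpp201 was listed with the translation factors. Shares, directions and medians below are therefore those of the listed genes only. Of all genes of the annotation 12.3% held a window. Chaperone and heat shock genes held windows on 11 of 29 genes, of which 9 were higher in ABP1d and 2 in WT (median log2 ratio 1.40); all member genes had a median of 1.70. The chaperonin subunit genes differed among themselves: cct4 had 51 reads in ABP1d and 1 in WT, in a window shared with nat2, cct3 had 29 and 38, and cct8 had 2 and 8. Membrane pumps and transporters held windows on 11 of 31 genes, 10 higher in ABP1d and pma1 in WT (median 1.503). Redox and stress defence genes held them on 9 of 27, 7 higher in ABP1d, such as tps1, a trehalose-phosphate synthase gene, with 37 and 5 reads, and 2 in WT, the thioredoxin gene trx1 with 21 and 28 reads in a window shared with SPAC7D4.08, and hmt2 (median 1.40).

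Histone genes held windows on 5 of 11 genes, all higher in ABP1d (median 1.40). The histone H4 gene hhf1 had 72 reads in ABP1d and 23 in WT, which gave the ratio 1.90 (1.17 to 3.19), and hht1 had 39 and 8. Other genes of carbon metabolism held windows on 7 of 29 genes, 5 higher in ABP1d and 2 in WT (median 1.67), with tpi1 at 204 and 39 reads and pdc101 at 39 and 93. Cell wall and surface genes held them on 6 of 29, 5 higher in ABP1d (median 1.95). The exception was bgs4, a glucan synthase gene of the septum, with 83 and 88 reads, 1.75-fold higher in WT (1.28 to 2.38), while bgs1, which makes the primary septum, had 51 and 8.

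In the other lists the few genes with a window were all higher in ABP1d, as were 94.3% of all genes with a window. The genes were 6 of 40 for amino acid and one-carbon metabolism (median 1.55), such as ilv1 with 19 and 3 reads and the arginase gene aru1 with 20 and 0, 5 of 23 for the cytoskeleton (median 2.45), such as the tropomyosin gene cdc8 with 110 and 14 and the tubulin gene atb2 with 48 and 4, and 5 of 31 for respiration and ATP synthase (median 1.57), such as the cytochrome oxidase genes cox8 with 43 and 12 and cox9 with 44 and 9. They were 5 of 24 for translation factors (median 2.09), such as tif45, which encodes the cap-binding factor eIF4E, with 57 and 1 and tif51, which encodes eIF5A, with 35 and 5, and 4 of 30 for ribosome biogenesis and rRNA synthesis (median 1.86), such as nog2 with 83 and 14 and nuc1, the large subunit of RNA polymerase I, with 27 and 0. They were 3 of 28 for ubiquitin and proteasome (median 2.98), with ubi3 at 40 and 3 and ubi5 at 39 and 3; these 2 list nearly the same reads, which cannot be assigned to either, and they set this median.

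Genes of RNA interference and heterochromatin, the pathway that uses small interfering RNAs, held windows on 2 of 31 genes. swi6, which encodes the main HP1 protein of fission yeast, had 50 reads in ABP1d and 10 in WT, which gave the ratio 3.04 (1.52 to 6.72), in the window printed above that recurs in the rRNA repeats. chp2, which encodes the other HP1 protein, had 12 and 0 and was at least 2.43-fold higher against the floor, while the exact interval began at 1.69. Meiotic genes and those of their RNA elimination held windows on 2 of 24: mei3, an inducer of meiosis, had 15 reads in ABP1d and 0 in WT, and red1, of the elimination machinery, had 12 and 0.

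**Figure D5:**
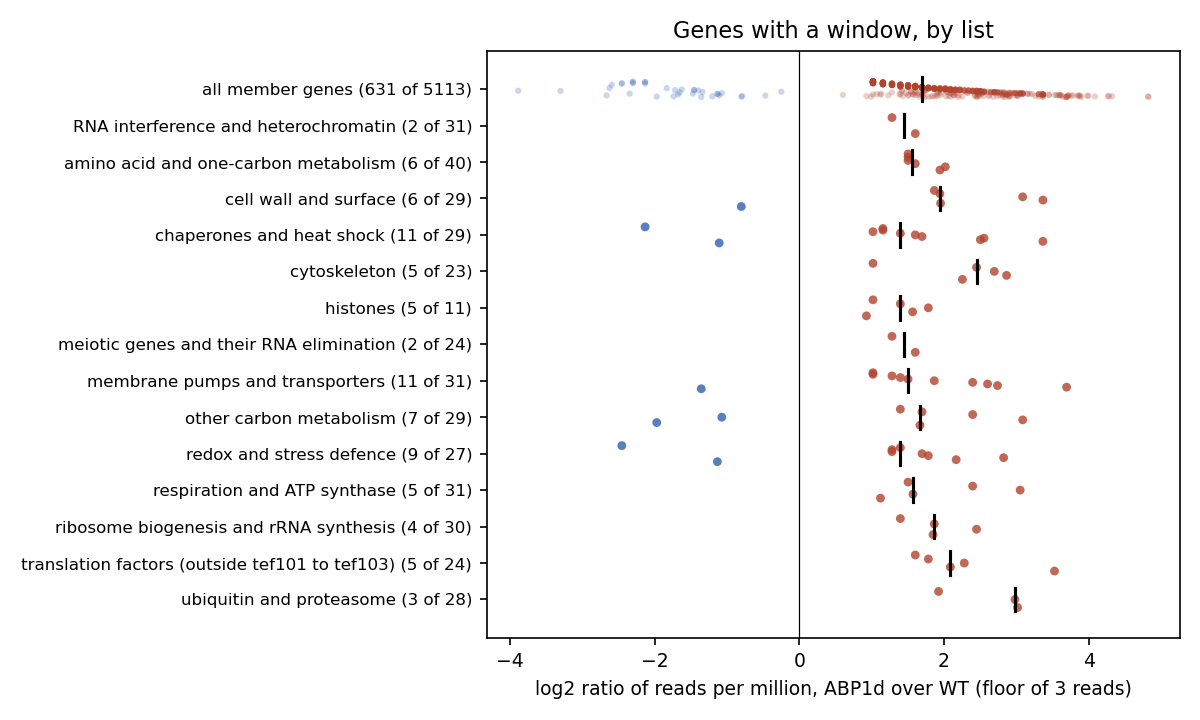
Log2 ratio of RPM, ABP1d over WT, with a floor of 3 reads, for each gene with a window, by list; brackets give genes with a window of genes annotated, red points are higher in ABP1d, blue points higher in WT, and black bars are medians. The medians of the 14 lists lie between 1.40 and 2.98, and 8 listed genes of 5 lists are higher in WT.

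The 113 windows on the ribosomal protein, glycolytic and elongation factor genes that were left out had 93 higher in ABP1d and 20 in WT, a median log2 ratio of 1.40 and a summed ratio of 1.66. Windows left out for an A or T run of at least 15 bases went the other way, with 59 of 60 higher in WT and a median of -0.20. None of the 682 windows overlapped a region of either strain's own list of small RNA regions.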

How the data were processed

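Small RNA of 2 WT and 2 ABP1d libraries was sequenced after ligation of 3′ and 5′ adapters and 12 PCR cycles, per the labels' protocols. The submitters' processing notes name Bowtie 0.12.5; the sources used here do not say how adapters or reads matching several places were handled. The authors deposited RPKM values and a p-value for each window, pooled per strain, with no strand and no values per library, so the count test foreseen for reads per library was not run. RPKM times length gave whole reads (tolerance 1e-06) for all values, and RPM were taken against their totals. Window starts were read as 1-based and ends as 1 past the last base, because tRNA gene 5′ edges then coincide with window edges (43 windows forward, 32 reverse). The build of the files is not stated in these sources; sequences and annotation are RefSeq's ASM294v3.

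Ratios have exact binomial 95% intervals, which cover counting error only, since PCR reads without molecular identifiers are not independent molecules. A strain below 3 reads was set to 3 in log2 ratios. Called means past 2-fold. Python 3.11.15, pandas 2.3.3, numpy 2.4.6 and scipy 1.17.1 were used. The intervals were tested only on counts simulated from the same binomial model, which holds no PCR copies and no spread between libraries. Centromeres were taken as the longest stretch of each chromosome without a protein-coding gene, and the outer 100 kb was left out at both ends of chromosomes I and II. Named genes were the 10 with the highest mean level, the 8 with the highest lower bound and the 8 with the lowest upper bound of the ratio, the 5 with the most windows, and up to 2 of each list with the most reads; other genes were named after their values were seen. The members and lists were chosen with earlier results of these data known. One intron window's sequence is not reported here. Nothing says that the libraries of a strain came from separate cultures.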

Additional observations from a re-analysis of the deposited data

How the results depend on the processing

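Of the alternative values for the 6 summary results, 48 stayed near the reported one, 35 moved and 1 reversed; reported were 638 windows higher and 44 lower in ABP1d, 636 and 41 at least 2-fold, a median log2 ratio of 1.60 and a summed ratio of 4.36. With coding sequence only, the counts were 300, 25, 299 and 24 and the summed ratio 3.83. Without windows on annotated noncoding RNA they were 381, 27, 380 and 25, with 3.96. With windows of the same length and the same reads in both strains counted once, whatever their sequence, 449 windows were left. Of these, 406 were higher, 404 at least 2-fold, the median was 1.87 and the summed ratio 3.84. With at least 20 reads, the counts were 306, 26, 304 and 23, the median 2.22 and the summed ratio 3.94. Leaving out only the high-coordinate ends gave a summed ratio of 3.67, and leaving out A or T runs of at least 10 gave 4.55. These settings change which windows are counted.

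Scaling moved the sizes most. Totals without rRNA repeats gave 335 windows at least 2-fold higher, a median of 0.94 and a summed ratio of 2.76; the 5S rRNA median set to 0 gave 163, 0.35 and 1.83, and the snRNA median 108, 0.039 and 1.47. The median of all windows set to 0 gave 86 lower, 81 at least 2-fold higher, a median of -0.18 and a summed ratio of 1.27, and pop5 turned to -0.049. These shifts were 0.66, 1.25, 1.56 and 1.78 (log2). A floor of 1 read gave a median of 2.87. For the 24 named genes, 45 values stayed near the reported one, 74 moved and 1 reversed. Reading the coordinates as standard BED, chosen after seeing the data, left all 6 summary results near the reported values. A count was judged by its relative size alone, and the median and summed ratio by intervals that hold no spread between libraries.

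No paired analysis was possible because the deposited values are pooled per strain; for the same reason, leaving out each library in turn was not run. Depth limits most windows, since 236 had 0 reads in WT and 261 had 1 or 2.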
